A study of Mus musculus with 12 samples.

Results

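The nuclear-encoded subunits of mitochondrial complex I were followed by RNA-seq in 12 cultures of EO771-tdT-LM2, which is a line of murine breast cancer cells with a tdTomato label. Members were the rows of the deposited count table whose Ensembl gene ID maps to a protein-coding mouse gene with a subunit name of the Ndufa, Ndufb, Ndufc, Ndufs, Ndufv or Ndufab type. The Ndufaf assembly factors were not members. This gave 38 members among 55414 rows, and all 38 were among the 11332 genes with enough counts to be tested. Of 41 rows with such a name, 3 (Ndufs6b, Ndufb4c and Ndufa11b) are annotated as pseudogenes and were left out. By their known place, 36 of the 38 are complex I subunits. Ndufa4, now placed in complex IV, and its relative Ndufa4l2 match by name only.

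Every culture, controls included, had the genotype label WT. All were put in glucose-deprived medium (10 mg/dl glucose, 1% FBS) for 30 minutes before seeding and treated in such medium for 24 hours. In 3 cultures the cells received 0.2 µg/mL GDNF together with 2.5 µg/mL anti-NCAM1. In 3 others they received 0.2 µg/mL GDNF with 2.5 µg/mL IgG, and in another 3 they received 2.5 µg/mL anti-NCAM1 with 0.1% BSA. The 3 control cultures received 0.1% BSA with 2.5 µg/mL IgG. BSA was listed for every culture without GDNF and for none with it. Effects of GDNF and of the absence of BSA therefore cannot be told apart. GDNF is a neurotrophic growth factor, and NCAM1 is a cell adhesion molecule that can serve as one of its receptors. The cultures are of a single line and are called triplicates, without a statement that they were separate experiments, so p-values measure only the spread between these cultures.

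Complex I takes electrons from NADH, passes them along a chain of iron-sulfur clusters to ubiquinone, and pumps protons across the inner mitochondrial membrane. It is L-shaped, with an arm in the matrix and an arm in the membrane. The core subunits that carry out catalysis in the matrix arm are nuclear-encoded, the core of the membrane arm is encoded by mitochondrial DNA, and the many supernumerary subunits around both are nuclear-encoded. By reoxidising NADH, complex I lets cells burn amino acids and fatty acids as well as sugar.

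CPM below are read counts scaled to library size with TMM factors. Library totals ran from 5616398 to 8093754 counts, of which the 38 members held 9781 to 13933, or 0.160% to 0.181%. GDNF replicate 3 stood apart from the other 11 libraries. Mitochondrially encoded genes made up 10.2% of its counts, against 4.11% to 5.29% in the others. A single gene ID without a symbol made up 0.543% of its counts, against 3.79% to 9.84% in the others. Counts of that ID are in the library totals of which the member shares were taken. Slopes on transcript GC content were fitted, together with transcript length, to gene levels relative to the mean of the 12 libraries. The slope was -0.34 (log2 per 10 points of GC) for GDNF replicate 3 and -0.16 for GDNF replicate 2. Anti-NCAM1 replicates 1 and 3 had slopes of -0.08 and -0.09, and the other 8 libraries had slopes of 0.05 to 0.12. As the slopes are relative, values below 0 in some libraries go with values above 0 in others. Of 7 markers of epithelial cells, Krt8 and Epcam were tested, Cdh1 had at most 4 counts and Krt18 at most 1, and Krt7, Krt19 and Cldn4 were at 0 throughout. Epcam had 12.1 to 14.5 CPM with GDNF plus anti-NCAM1, 15.9 to 18.3 with GDNF, 15.8 to 18.1 with anti-NCAM1 and 13.2 to 14.2 in controls, and was not called. Krt8 had 546 to 564, 482 to 553, 526 to 570 and 506 to 543 CPM in the same order, and was not called either. Among fibroblast genes Col1a1 averaged 306 CPM, Pdgfra 228 and Col3a1 155, while Col1a2 and Dcn had at most 1 count and Lum was at 0. Pdgfra had 220 to 226, 221 to 243, 223 to 241 and 225 to 234 CPM in the same order of groups. The sum of the 6 fibroblast markers ran from 679 to 694 CPM with GDNF plus anti-NCAM1, 599 to 698 with GDNF, 659 to 717 with anti-NCAM1 and 726 to 770 in controls, and the part of these markers in the subunit values was not tested. In bulk RNA, fewer cells of a kind and less RNA per cell cannot be told apart.

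Promoter sequence is shown first, because nuclear respiratory chain genes are known to share binding motifs of the factors NRF1 and YY1 near their start sites. RefSeq windows from 250 bases before to 50 bases after the annotated start (GRCm38.p6) were at hand for 33 members and for 27025 genes in all. The 27025 were not filtered for protein-coding or tested genes, while all members were both. The shares below thus compare unlike sets, and the part of this in their differences was not tested. Both strands were searched. The YY1 motif AAGATGGCG was present in 5 of 33 members (15.15%), against 1.64% of all genes. It was found in Ndufs4 (chr13:114388045-114388074), Ndufs6 (chr13:73328433-73328462), Ndufa9 (chr6:126849096-126849125) and Ndufc1 (chr3:51408914-51408943), all on the minus strand, and in Ndufs7 (chr10:80249463-80249492) on the plus strand. The 30 bases around each are given along the gene's own strand, 5′ to 3′, with the motif in capitals:
Ndufs4: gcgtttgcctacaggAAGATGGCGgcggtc
Ndufs6: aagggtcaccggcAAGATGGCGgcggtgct
Ndufs7: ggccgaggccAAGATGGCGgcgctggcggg
Ndufa9: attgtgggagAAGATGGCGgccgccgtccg
Ndufc1: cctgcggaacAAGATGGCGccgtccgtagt

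In all 5 the motif lay on the gene's own strand, 22 to 35 bases after the annotated transcript start. In all 5 the ATG inside the motif was the annotated start codon, so that the motif spans the end of the 5′ leader and the first codons. The core NRF1 motif GCATGCGC was present in 3 of 33 members (9.09%), against 3.05% of all genes. These were Ndufa6 (chr15:82354356-82354385, minus strand), Ndufa8 (chr2:36049328-36049357, minus strand) and Ndufa11 (chr17:56717693-56717722, plus strand), each with the motif before the start. The Ndufa11 match reads in both directions, as a pair of overlapping matches. Their sequences follow in the same way, with the NRF1 motif in capitals:
Ndufa6: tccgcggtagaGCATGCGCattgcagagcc
Ndufa8: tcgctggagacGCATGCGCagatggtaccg
Ndufa11: ctgcactgcgcGCATGCGCgcacgccttgt

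No member held both motifs. Other promoter letters were about as common in members as in all genes or less common. The Ets letters CCGGAAG were in 12.12% of members against 9.93% of genes, the Sp letters GGGGCGGGG in 15.15% against 12.91%, the CCAAT box in 30.3% against 41.06% and TATAAA in 12.12% against 15.67%. The members' windows had a median GC content of 59.0%, against 52.75% for all genes. A match is a description of the letters and not of factor binding.

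To compare levels between subunits, CPM were divided by the transcript length in kilobases. The 36 complex I members had a median of 37.8 CPM per kilobase, and 35 of them ran from 21.6 to 108. The core of the NADH-oxidising N module was at 71.9 for Ndufv1, which holds the flavin, 56.8 for Ndufv2 and 49.8 for Ndufs1, both carriers of iron-sulfur clusters. In the core of the ubiquinone-reducing Q module, Ndufs8, Ndufs3 and Ndufs7 were at 35.2, 34.2 and 27.6 CPM per kilobase, and the ranges of these 3 over libraries overlapped.

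Among supernumerary subunits, Ndufc2 of the membrane arm had the highest level, with 108 CPM per kilobase. Ndufa7 of the matrix arm followed with 90.6, and Ndufv3 had the lowest level of that arm with 21.6. Medians were 42.2 for the 9 matrix arm subunits, 42.9 for the 9 of the proximal membrane arm and 35.7 for the 10 of the distal membrane arm. The mitochondrial acyl carrier protein Ndufab1, bound in both arms, was at 28.6. Ndufb2 had the lowest level, 6.83 CPM per kilobase, ranging from 3.39 to 10.4 over the libraries. The order depends on the transcript taken where a gene has annotated main transcripts of different lengths. On the longest of these Ndufb2 would be at 0.711 (4371 in place of 455 bases), Ndufc1 at 7.96 in place of 31.6, and Ndufab1 at 11.6 in place of 28.6, and 33 of the 36 would be at 20 or more. Ndufa4 was at 164 and Ndufa4l2, which is known as a hypoxia-induced gene, at 2.03.

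**Figure D1:**
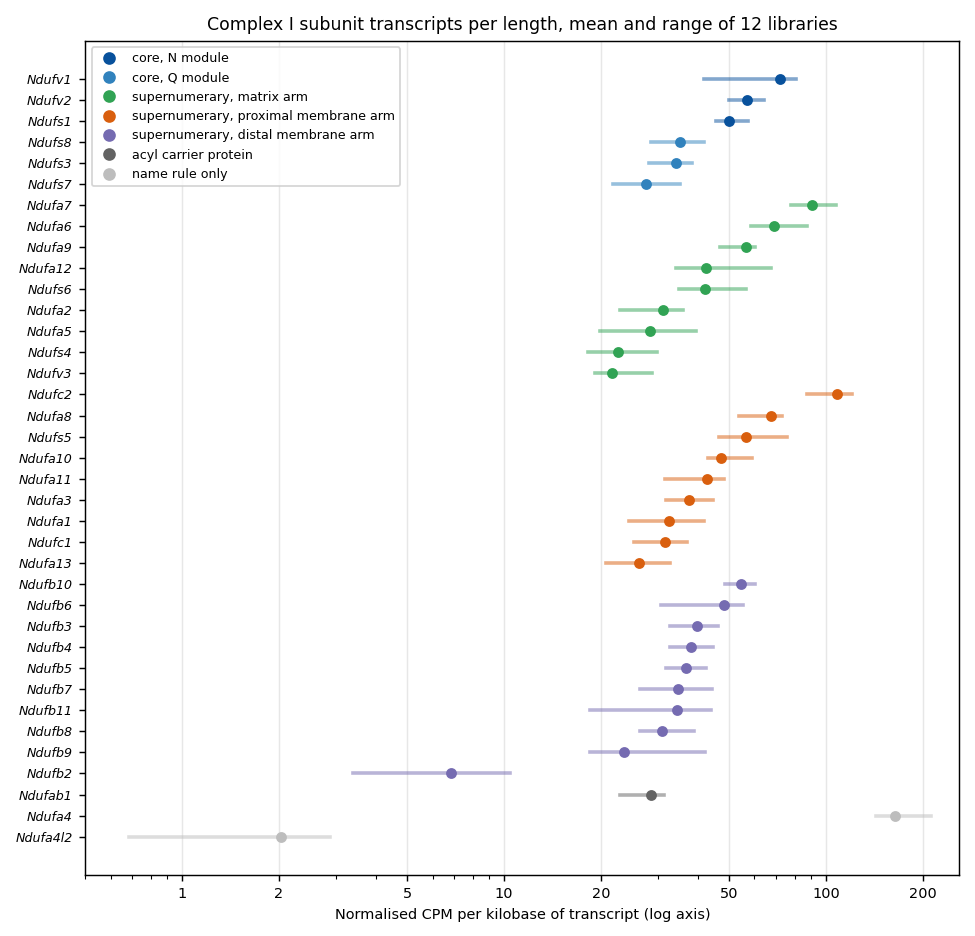
Level of 37 members per kilobase of transcript (horizontal log axis, normalised CPM per kilobase), in order of role. Points are means and bars the range of the 12 libraries. Those of complex I but Ndufb2 (6.83) average from 21.6 to 108, and Ndufa4 (164) and Ndufa4l2 (2.03) lie at the ends.

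The distal membrane arm subunit Ndufb1 is not a member. Its row has the symbol Ndufb1-ps, which does not match the name rule, and GENCODE annotates it as a long noncoding RNA. RefSeq names it protein-coding. It held 180 to 294 counts per library and averaged 35.8 CPM.

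Over the 12 libraries the members had a median coefficient of variation of 11.2%, and 30 of 38 were under 15%. The most variable were Ndufa4l2 at 34.8%, Ndufb9 at 27.3% and Ndufb2 at 25.8%. GDNF replicate 3 was the highest library of all 12 for 14 members and the lowest for 10. Its members lay a median of 0.33 (log2, either direction) from the mean of the other libraries, against 0.06 to 0.11 for each of the other 11. It held the highest value of Ndufb9, 0.87 above the others, and the lowest of Ndufb11, 0.87 below. Pairs of members had a median Pearson correlation over the 12 libraries of 0.04, across 703 pairs that share the same libraries. It was 0.08 without GDNF replicate 3. Neither the correlations nor the coefficients of variation were compared with those of all genes.

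The subunits as a whole had similar levels in all 4 groups. A library's level was taken as the mean over the 38 members of log2(CPM + 2) minus the control mean. It was 0.02, 0.04 and 0.04 with GDNF plus anti-NCAM1, 0.05, 0.03 and 0.03 with GDNF, -0.02, 0.06 and 0.09 with anti-NCAM1, and -0.01, -0.02 and 0.03 in controls. The ranges of the GDNF plus anti-NCAM1 and anti-NCAM1 libraries overlapped that of the controls, and so did the range of the GDNF libraries. The group means were 0.03 ± 0.01 with GDNF plus anti-NCAM1, 0.03 ± 0.01 with GDNF and 0.05 ± 0.05 with anti-NCAM1, beside a spread of 0.03 between control libraries (SD, n = 3 each).

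**Figure D2:**
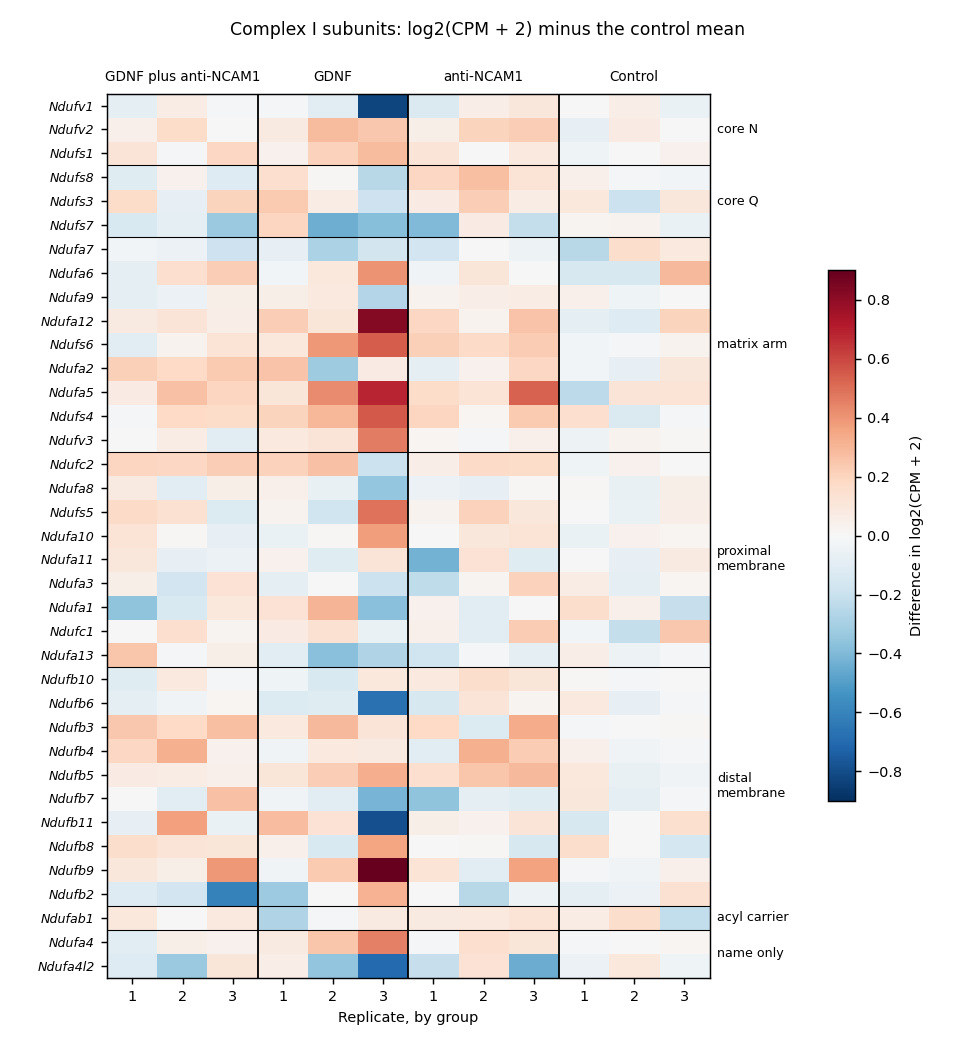
The same 37 members (rows, by role) in each library (columns, 3 replicates per group), as log2(CPM + 2) minus the mean of the controls, in colour. GDNF replicate 3 is the most strongly coloured column in both directions, with Ndufa12 and Ndufb9 high and Ndufv1 and Ndufb11 low.

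The first comparison, GDNF against control, sets glucose-deprived cells given GDNF without BSA against cells given BSA without GDNF. No member was called by edgeR's quasi-likelihood test at a Benjamini-Hochberg adjusted p of 0.05 (0 of 38, against 0% of all 11332 genes). At an unadjusted p under 0.05, 10 members were higher, where 11.6% of all genes were, and 2 were lower, where 8.7% were. The groups did not overlap, with GDNF higher, for 7 members (9.89% of all genes), and with GDNF lower for 2 (7.76%). In all 24 of 38 members had a fold change above 0 (50.3% of all genes), with a median log2 fold change of 0.04, against 0.00 for all genes tested. Limma-voom also called no member. DESeq2 gave an adjusted p to 3 of the 38 members in this comparison, since its filter on mean counts left 1885 genes, and called none of the 3.

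The 3 core subunits of the N module did not lie on the same side of the controls. Ndufv1, the subunit that binds NADH and flavin, had 118, 131 and 123 CPM with GDNF plus anti-NCAM1, 123, 116 and 69.5 with GDNF, 114, 130 and 134 with anti-NCAM1, and 125, 130 and 119 in controls. Its log2 fold change with GDNF was -0.28 (SE 0.15, adjusted p = 0.279, edgeR). The groups overlapped, and GDNF replicate 3 alone was below all other libraries. Ndufv2 had 92.1, 100 and 89.1 CPM with GDNF plus anti-NCAM1, 94.5, 109 and 106 with GDNF, 92.2, 102 and 104 with anti-NCAM1, and 84.6, 93.8 and 89.1 in controls. Its GDNF libraries lay just above its controls, with a log2 fold change of 0.21 (SE 0.08, adjusted p = 0.197, edgeR). Ndufs1, the largest of the nuclear-encoded core subunits, had 132, 120 and 138 CPM with GDNF plus anti-NCAM1, 125, 140 and 148 with GDNF, 132, 121 and 129 with anti-NCAM1, and 118, 122 and 125 in controls. Its groups overlapped by a small margin and its log2 fold change with GDNF was 0.18 (SE 0.08, adjusted p = 0.225, edgeR).

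None of the 4 core subunits of the Q module had an unadjusted p under 0.05 with GDNF. Ndufs3, a core subunit without a cofactor of its own, had 38.4, 32.2 and 39.4 CPM with GDNF plus anti-NCAM1, 40.2, 35.6 and 29.7 with GDNF, 35.8, 39.9 and 35.7 with anti-NCAM1, and 36.3, 29.4 and 36.6 in controls. Its groups overlapped, with a log2 fold change of 0.04 (SE 0.13).

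Ndufs7, which carries the last iron-sulfur cluster before ubiquinone, had 20.8, 21.7 and 17.9 CPM with GDNF plus anti-NCAM1, 26.6, 16.5 and 17.3 with GDNF, 17.1, 24.5 and 19.6 with anti-NCAM1, and 23.6, 23.6 and 22.1 in controls. GDNF replicate 1 was above the controls and replicates 2 and 3 below them, for a log2 fold change of -0.20 (SE 0.17). Ndufs8, another cluster carrier, had 31.04, 34.6 and 30.9 CPM with GDNF plus anti-NCAM1, 37.5, 33.8 and 27.9 with GDNF, 38.4, 40.999 and 36.7 with anti-NCAM1, and 34.7, 33.1 and 33.02 in controls. The GDNF values straddled the controls at a log2 fold change of -0.03 (SE 0.11), and the anti-NCAM1 values were above them.

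Among the roles, the supernumerary subunits of the matrix arm had the highest median log2 fold change with GDNF. That median was 0.24 over 9 subunits, of which 7 were above 0 (50.3% of all genes) and 5 were higher at an unadjusted p under 0.05 (11.6% of all genes). The medians were 0.18 over the 3 N module core subunits, -0.005 over the 4 of the Q module, 0.04 over the 9 of the proximal and 0.04 over the 10 of the distal membrane arm. The mean level of the matrix arm set was 0.01, 0.10 and 0.09 with GDNF plus anti-NCAM1, 0.11, 0.11 and 0.37 with GDNF, 0.06, 0.06 and 0.18 with anti-NCAM1, and -0.07, -0.02 and 0.10 in controls. GDNF replicate 3 was far above the other GDNF libraries, and those were just above the highest control.

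**Figure D3:**
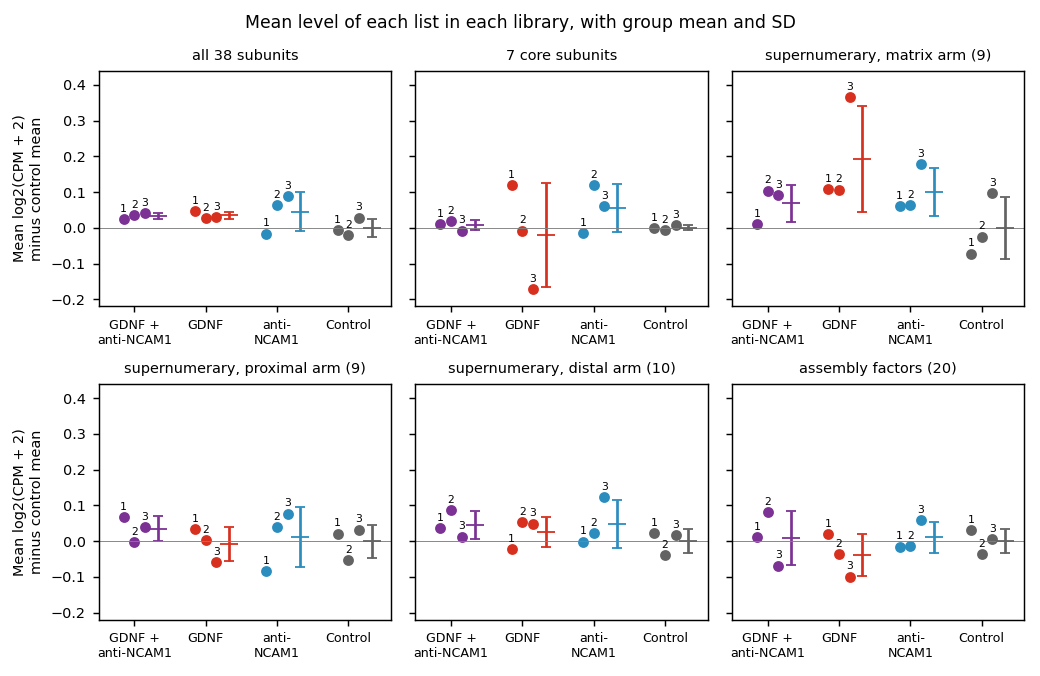
Mean log2(CPM + 2) minus the control mean for all members, the core, the 3 supernumerary sets and the assembly factors, by library (points with replicate number), with group mean and SD (n = 3 each). The matrix arm set reaches 0.37 in GDNF replicate 3, where the 7 core subunits stand at -0.17.

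Ndufs4 and Ndufs6 had the smallest p-values among members with higher levels. Ndufs4 sits where the N and Q modules join, and its loss in mice gives a model of Leigh syndrome. It had 33.6, 38.8 and 38.4 CPM with GDNF plus anti-NCAM1, 39.4, 42.5 and 50.9 with GDNF, 39.2, 34.5 and 40.4 with anti-NCAM1, and 37.95, 30.95 and 33.6 in controls. All GDNF values were above all control values. The log2 fold change was 0.38 (SE 0.12, adjusted p = 0.167, edgeR), and 0.26 without GDNF replicate 3.

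Ndufs6, a zinc-binding subunit added late in assembly, had 19.8, 21.9 and 23.5 CPM with GDNF plus anti-NCAM1, 22.9, 28.6 and 32.1 with GDNF, 25.1, 24.3 and 25.3 with anti-NCAM1, and 20.9, 21.2 and 21.9 in controls. The GDNF and anti-NCAM1 libraries each lay above all controls. The log2 fold change with GDNF was 0.39 (SE 0.12, adjusted p = 0.169, edgeR), and 0.26 without GDNF replicate 3. Ndufa12 and Ndufa5 of the same arm had larger estimates, 0.43 (SE 0.15) and 0.44 (SE 0.16), with groups that overlapped. Ndufa12 had 43.9, 44.95 and 43.2 CPM with GDNF plus anti-NCAM1, 48.5, 44.8 and 74.8 with GDNF, 47.4, 42.4 and 49.9 with anti-NCAM1, and 38.9, 38.02 and 47.9 in controls. GDNF replicate 3 was by far its highest library.

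Lower values were fewer. Ndufa13, also known as GRIM-19, a subunit at the base of the membrane arm, had 40.9, 33.8 and 35.5 CPM with GDNF plus anti-NCAM1, 31.7, 25.9 and 28.0 with GDNF, 29.9, 33.8 and 32.2 with anti-NCAM1, and 35.7, 33.01 and 33.9 in controls. The GDNF values were all below the controls, at a log2 fold change of -0.26 (SE 0.11, adjusted p = 0.214, edgeR) that was -0.25 without GDNF replicate 3. Ndufb6 of the distal membrane arm had 31.3, 32.7 and 33.8 CPM with GDNF plus anti-NCAM1, 30.5, 30.8 and 20.2 with GDNF, 30.1, 36.5 and 34.1 with anti-NCAM1, and 35.7, 31.6 and 33.1 in controls. Its GDNF values were also all below the controls, at a log2 fold change of -0.30 (SE 0.14, adjusted p = 0.239, edgeR), and of -0.13 without GDNF replicate 3.

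**Figure D4:**
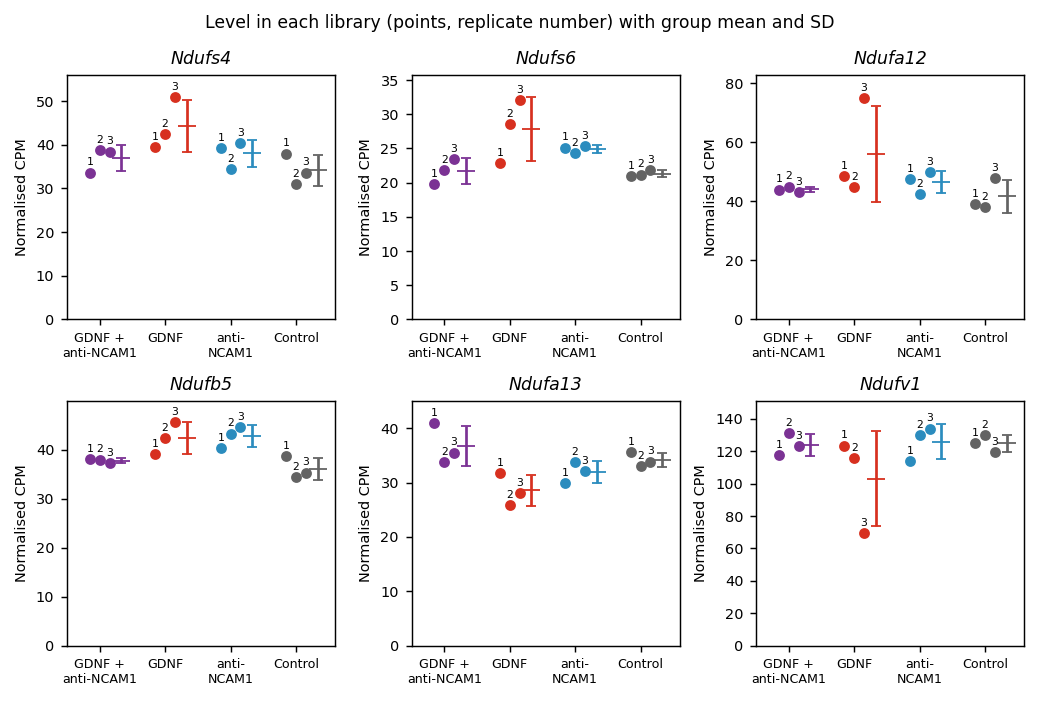
Normalised CPM (axis from 0) of 6 members in each library, with group mean and SD (n = 3 each) at the right of each group. GDNF replicate 3 holds the highest value of Ndufs4, Ndufs6, Ndufa12 and Ndufb5 and the lowest of Ndufv1 (69.5).

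The members outside complex I proper lay on opposite sides of their controls. Ndufa4 had 64.6, 72.1 and 71.5 CPM with GDNF plus anti-NCAM1, 73.8, 83.0 and 95.9 with GDNF, 68.8, 77.3 and 75.2 with anti-NCAM1, and 68.5, 69.7 and 70.4 in controls. All GDNF values were above all controls, with a log2 fold change of 0.28 (SE 0.09, adjusted p = 0.169, edgeR). Ndufa4l2 was near the detection floor, where 3 counts are 0.360 to 0.525 CPM. It had 1.95, 1.40 and 2.62 CPM with GDNF plus anti-NCAM1, 2.46, 1.34 and 0.640 with GDNF, 1.71, 2.69 and 1.14 with anti-NCAM1, and 2.13, 2.57 and 2.16 in controls. Its groups overlapped and its log2 fold change of -0.65 had an SE of 0.42. The acyl carrier protein Ndufab1, needed also for mitochondrial fatty acid synthesis, had 42.6, 39.5 and 42.3 CPM with GDNF plus anti-NCAM1, 32.6, 39.5 and 42.1 with GDNF, 42.0, 42.3 and 43.5 with anti-NCAM1, and 41.7, 44.4 and 33.7 in controls. One GDNF and 1 control library were low and the groups overlapped (-0.07, SE 0.12).

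The absence of calls depended on 1 library. GDNF replicate 1 had a GC slope above 0, relative to the mean of the 12 libraries, as the controls did. Without it, 13 of 38 members passed at an adjusted p of 0.05 beside 23.9% of all genes. Then 10 were higher (Ndufs1, Ndufb5, Ndufa4, Ndufa5, Ndufa12, Ndufs6, Ndufs4, Ndufb9, Ndufv2 and Ndufv3) and 3 lower (Ndufs7, Ndufa13 and Ndufv1). Without GDNF replicate 3, no member and no gene passed. With no filter on low counts, 3 members (Ndufa5, Ndufa12 and Ndufb9) were called higher beside 3.29% of genes.

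The values moved with the GC content of the transcript. Over the 38 members, fold changes with GDNF had a Spearman correlation of -0.44 with GC content, and -0.63 over 11313 genes. These points share their libraries. The 4 members under 45% GC had a median log2 fold change of 0.24, against 0.18 for all genes of that range, and the 13 members of 55% and over had -0.03, against -0.21. After taking out each library's GC and length trend, the log2 fold change of Ndufs4 was 0.19 and that of Ndufa13 -0.01, while that of Ndufs6 was 0.45 and that of Ndufb6 -0.44. That of Ndufs8 was 0.13, above 0. The median over the 38 members was then 0.04, with 22 above 0.

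**Figure D5:**
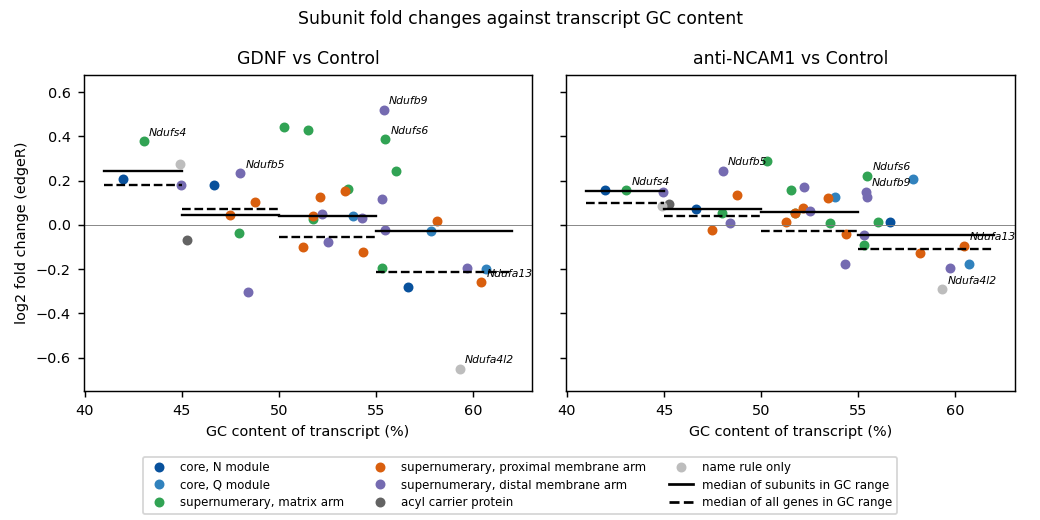
log2 fold change of 37 members (edgeR) against the GC content of their transcripts (percent), for GDNF and for anti-NCAM1 against control. Solid lines are medians of all 38 members and dashed lines medians of all genes in 4 GC ranges (under 45, 45 to 50, 50 to 55, 55 and over). Both fall to the right, and members of 55% and over have medians of -0.03 and -0.04, above those of all genes at -0.21 and -0.11.

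The second comparison, anti-NCAM1 against control IgG, asks what the antibody changed when given alone. No member was called (0 of 38, against 0% of all genes, edgeR, DESeq2 and limma-voom). At an unadjusted p under 0.05 there was 1 higher member (2.61% of all genes) and 0 lower (2.67%). Of the 38, 28 were above 0 (51.1% of all genes), with a median log2 fold change of 0.06 against 0.00. The groups did not overlap with anti-NCAM1 higher for 6 members (9.02% of all genes) and lower for 0 (7.85%). The 6 were Ndufb5, Ndufs8, Ndufa5, Ndufs6, Ndufc2 and Ndufb10, which are in the core, the matrix arm and both parts of the membrane arm.

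The member with the smallest p was Ndufb5, a distal membrane arm subunit. It had 38.1, 37.95 and 37.2 CPM with GDNF plus anti-NCAM1, 39.1, 42.3 and 45.7 with GDNF, 40.3, 43.3 and 44.7 with anti-NCAM1, and 38.6, 34.4 and 35.3 in controls. The values of either single treatment were all above the controls, while those with both overlapped them. The log2 fold change was 0.25 with anti-NCAM1 (SE 0.09, adjusted p = 0.853, edgeR) and 0.23 with GDNF (SE 0.09, adjusted p = 0.199, edgeR). Ndufv2 came next among higher members, at 0.16 with anti-NCAM1 (SE 0.08, adjusted p = 0.853, edgeR). Ndufs8 was at 0.21 (SE 0.11) with anti-NCAM1. The lowest p-values among lower members were those of Ndufb7 and Ndufs7, at -0.19 (SE 0.14) and -0.17 (SE 0.17) in log2 fold change. Ndufb7, a disulfide-bonded subunit on the intermembrane side, had 22.6, 21.2 and 27.6 CPM with GDNF plus anti-NCAM1, 22.2, 21.01 and 16.5 with GDNF, 17.2, 21.3 and 20.9 with anti-NCAM1, and 24.5, 21.3 and 22.5 in controls. Its groups overlapped.

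Fold changes of the members with anti-NCAM1 had a Spearman correlation of -0.48 with GC content, and those of 11313 genes -0.49. Anti-NCAM1 replicates 1 and 3, whose relative GC slopes were below 0, had member means of -0.02 and 0.09. Replicate 2, whose relative slope was above 0, had 0.06. After the GC and length trend was taken out, the median was 0.01 and 21 members were above 0. No member passed without GDNF replicate 3 (0.0706% of genes) or without the filter on low counts (0.0357%). Outside the rule, and chosen after its values were seen, Ndufb1-ps had 40.6 ± 2.88 CPM with anti-NCAM1 and 30.7 ± 2.84 CPM in controls (SD, n = 3 each), at a log2 fold change of 0.40 (SE 0.11, adjusted p = 0.853, edgeR). With GDNF plus anti-NCAM1 it had 40.5, 36.0 and 36.1 CPM, also all above the controls. With GDNF it had 32.6, 38.6 and 31.9 CPM, which overlapped the controls.

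The third comparison set GDNF plus anti-NCAM1 against control. No member was called (0 of 38, against 0% of all genes, edgeR, DESeq2 and limma-voom). At an unadjusted p under 0.05 there were 0 higher members (1.04% of all genes) and 0 lower (0.909%). Of the 38, 25 were above 0 (51.7% of all genes), with a median log2 fold change of 0.05 against 0.00. The groups did not overlap with the combination higher for 4 members (7.06% of all genes) and lower for 2 (6.27%). Ndufb3, a small distal membrane arm subunit, had 32.8, 31.3 and 33.5 CPM with GDNF plus anti-NCAM1, 29.4, 34.1 and 29.9 with GDNF, 31.3, 25.02 and 35.2 with anti-NCAM1, and 27.3, 27.5 and 27.6 in controls. The combination lay above the controls, at a log2 fold change of 0.24 (SE 0.12, adjusted p = 1, edgeR). Ndufc2, the highest subunit per length, had 78.4, 78.2 and 80.1 CPM with GDNF plus anti-NCAM1, 79.2, 82.5 and 59.5 with GDNF, 71.5, 77.5 and 76.97 with anti-NCAM1, and 66.6, 70.3 and 68.4 in controls. Its combination values were also all above the controls, at a log2 fold change of 0.20 (SE 0.10, adjusted p = 1, edgeR). On the lower side, Ndufb2 had 2.999, 2.80 and 1.54 CPM with GDNF plus anti-NCAM1, 2.32, 3.43 and 4.73 with GDNF, 3.41, 2.54 and 3.25 with anti-NCAM1, and 3.11, 3.21 and 3.96 in controls. Its combination values lay below its controls, at -0.50 (SE 0.32), and so did those of Ndufs7, at -0.20 (SE 0.17). No member passed without the filter on low counts (0.0179% of genes).

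The fourth comparison concerns the antibody on top of GDNF. No member was called for GDNF plus anti-NCAM1 against GDNF (0 of 38, against 0% of all genes, edgeR, DESeq2 and limma-voom). At an unadjusted p under 0.05, 1 member was higher (6.15% of all genes) and 5 were lower (7.81%). Of the 38, 21 were above 0 (50.1% of all genes) and the median log2 fold change was 0.01 against 0.00. After the GC and length trend was taken out, 17 were above 0 and the median was -0.02. The groups did not overlap for 2 members with the combination higher (6.2% of all genes) and for 4 with it lower (7.12%). This comparison shares its GDNF libraries with the first. Ndufa13 had the smallest p, at 0.37 (SE 0.11, adjusted p = 0.331, edgeR), and its combination values were all above its GDNF values. Ndufb6 was next on the higher side at 0.27 (SE 0.14). Ndufa4 was at -0.28 (SE 0.09, adjusted p = 0.331, edgeR), with no overlap, and Ndufs6 at -0.36 (SE 0.13, adjusted p = 0.331, edgeR), with overlap. The matrix arm set had a median of -0.26, with 6 of 9 below 0. Without GDNF replicate 1, 5 members passed beside 17.6% of all genes, with Ndufa13 and Ndufv1 higher and Ndufa4, Ndufa12 and Ndufs6 lower. Without GDNF replicate 3 none passed, and none did without the filter on low counts (1.55% of genes). Without GDNF replicate 3, Ndufa13 stood at 0.36, Ndufb6 at 0.09, Ndufa4 at -0.17 and Ndufs6 at -0.24. Fold changes of the members had a Spearman correlation of 0.25 with GC content, and those of 11313 genes 0.55. Medians over all genes were -0.13 under 45% GC, -0.07 at 45 to 50% and 0.19 at 55% and over. Over the members they were -0.20, 0.01 and 0.01. Transcripts of Ndufa13, Ndufb6, Ndufa4 and Ndufs6 had 60.43%, 48.41%, 44.91% and 55.46% GC.

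The fifth comparison set GDNF plus anti-NCAM1 against anti-NCAM1. No member was called (0 of 38, against 0% of all genes, edgeR, DESeq2 and limma-voom). At an unadjusted p under 0.05, 0 members were higher (1.26% of all genes) and 1 lower (1.24%). Of the 38, 16 were above 0 (50% of all genes), with a median log2 fold change of -0.02 against 0.00, and of 0.01 after the GC and length trend was taken out. The groups did not overlap for 2 members with the combination higher (5.52% of all genes) and for 4 with it lower (5.76%). Ndufs8 had a log2 fold change of -0.27 (SE 0.11, adjusted p = 0.999, edgeR), with no overlap between the groups. Ndufb5 was at -0.18 (SE 0.09), also without overlap. Ndufa13 and Ndufb7 had the smallest p-values among higher members, at 0.20 (SE 0.11) and 0.26 (SE 0.14), with overlap. Without the filter on low counts no member passed (0.0179% of genes).

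The sixth asked whether the difference between cultures with and without GDNF changed with the antibody present, by the interaction of both treatments. No member was called (0 of 38, against 0% of all genes, edgeR, DESeq2 and limma-voom). At an unadjusted p under 0.05, 2 members had an interaction above 0 (7.84% of all genes) and 7 below 0 (8.93%). Of the 38, 15 were above 0 (48.9% of all genes), with a median of -0.05 against -0.01. Ndufs6 had the smallest p, at -0.59 (SE 0.18, adjusted p = 0.24, edgeR). Its log2 fold change with GDNF was -0.20 in the presence of the antibody and 0.39 in its absence. Ndufb5 was at -0.41 (SE 0.13, adjusted p = 0.24, edgeR). Above 0, Ndufa13 was at 0.46 (SE 0.15, adjusted p = 0.24, edgeR) and Ndufb7 at 0.46 (SE 0.20, adjusted p = 0.278, edgeR). Without GDNF replicate 1, 7 members passed (Ndufb5, Ndufa4, Ndufa5, Ndufa13, Ndufs6, Ndufs4 and Ndufv2) beside 16.7% of genes. None passed without GDNF replicate 3 (0.124% of genes) or without the filter on low counts (1.8%). The members' interaction values had a Spearman correlation of 0.39 with GC content, and those of all genes 0.63.

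The genes that hold the YY1 motif at the start codon lay on both sides of 0. With GDNF, Ndufs4 and Ndufs6 had the values above, while Ndufs7 was at -0.20 (0.002 after the GC and length trend was taken out), Ndufa9 at -0.04 (SE 0.09) and Ndufc1 at 0.04 (SE 0.17). Among those with the NRF1 motif, Ndufa6 was at 0.16 (SE 0.14), Ndufa8 at -0.12 (SE 0.10) and Ndufa11 at 0.02 (SE 0.14). The values of Ndufa9, Ndufc1 and Ndufa11 changed sign when single libraries were left out, and that of Ndufa11 was -0.002 under upper-quartile scaling. The factor genes themselves were not called. Yy1 ran from 80.8 to 104 CPM over the 12 libraries, with a log2 fold change of 0.08 with GDNF (SE 0.08), and Nrf1 from 26.1 to 32.6 CPM, at 0.10 (SE 0.11). Of the 9 regulators listed, 7 were tested and 0 called, with Tfam, the mitochondrial DNA packaging factor, at 0.26 with GDNF (SE 0.10, adjusted p = 0.188, edgeR). The coactivator genes Ppargc1a and Ppargc1b had too few counts to be tested.

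Of 21 listed assembly factors, which join the complex only while it is built, 20 were tested and 0 called in any of the 6 comparisons (edgeR). With GDNF, 8 were above 0 and 12 below, at a median log2 fold change of -0.05. Ndufaf2, a relative of Ndufa12 that holds its place during assembly, had the smallest p. It had 14.7, 11.7 and 14.2 CPM with GDNF plus anti-NCAM1, 16.1, 15.9 and 17.1 with GDNF, 11.9, 11.9 and 13.8 with anti-NCAM1, and 11.8, 10.7 and 13.3 in controls. Its GDNF values were above those of every other group, at 0.46 against control (SE 0.14, adjusted p = 0.166, edgeR). Ndufaf8 was next at -0.56 (SE 0.33), on under 5 CPM in GDNF and control libraries.

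The mitochondrially encoded subunits, which form the membrane arm core, had their highest level in GDNF replicate 3. Of 7 listed, 5 were tested, since mt-Nd3 and mt-Nd4l were at or near 0 counts. With GDNF the median log2 fold change was 0.85, and 4 of 5 were higher at an unadjusted p under 0.05 (11.6% of all genes), with none called at the adjusted threshold. The mean level of the 5 was 0.04, 0.04 and 0.07 with GDNF plus anti-NCAM1, 0.10, 0.33 and 1.29 with GDNF, 0.11, -0.06 and 0.16 with anti-NCAM1, and 0.01, -0.03 and 0.02 in controls. GDNF replicate 1 lay within the range of the anti-NCAM1 libraries, and replicates 2 and 3 lay above all other libraries. The nuclear members stood at 0.03 in GDNF replicate 3. The 5 mitochondrial transcripts had 34.1% to 37.6% GC, and the lowest nuclear member had 41.96%. GDNF replicates 3 and 2 had the lowest GC slopes, -0.34 and -0.16. The part of GC content in these levels was not tested. For mt-Nd6, the one encoded on the other strand of mitochondrial DNA, GDNF against control gave 0.01 (SE 0.10). Whether strand was used in counting is not given in the sources used here, so its reads and those of the opposite strand cannot be told apart. Of 19 listed genes on the quinone side of the chain (succinate dehydrogenase, coenzyme Q synthesis and other quinone reductases), 18 were tested and 0 called, at a median of -0.06 with GDNF.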

How the data were processed

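The authors deposited raw counts per Ensembl gene for 12 libraries in 4 groups of 3, in whole numbers. Per the submitters' processing notes, kallisto 0.46.2, FastQC and MultiQC were used with the builds GRCm39 and mm10, without their roles. Kallisto gives estimated counts, and any rounding is not given in the sources used here. Symbols were matched to 52081 IDs, and 3333 had none.

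Counts were filtered with filterByExpr (minimum 10, total 15), scaled by TMM and fitted in 1 model of the 4 groups by edgeR 4.0.16 (quasi-likelihood F test, 2-sided, R 4.3.3), with Benjamini-Hochberg adjustment over 11332 genes in each of 6 comparisons. The fit was tested on simulated counts that had no GC trend and no outlying library, so it does not cover those features of these data. For GDNF against control it recovered 50, 49, 46 and 40 of 50 genes at folds of 4, 0.25, 2 and 0.5, with 6 false calls. Smaller changes were not simulated. The members' log2 fold changes with GDNF ran from -0.65 to 0.52, so recovery at such sizes is not known. Depth sets a floor of 3 counts, 0.360 to 0.525 CPM. Transcript lengths and GC content are from GENCODE M21, promoters from RefSeq GRCm38.p6. Alternatives were DESeq2 1.42.0, limma-voom (limma 3.58.1), other scalings and filters, a replicate block, removal of the GC and length trend (lowess span 0.3) and leaving out each library.

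Members and lists were chosen with earlier results of these data known. Per-library values are given, by rule, for the core subunits (1 is not reported here singly, but enters the counts and medians), the 2 members with the smallest p in each direction of each comparison, Ndufa4, Ndufa4l2, Ndufs4, Ndufs6, Ndufab1 and Ndufa13. Ndufa12, Ndufb1-ps and other members given with values were chosen after those were seen.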

Additional observations from a re-analysis of the deposited data

How the results depend on the processing

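DESeq2 called 31 genes for GDNF against control, with 0 of the 3 members it adjusted. Without a filter on low counts edgeR called 736 genes there, with 3 members (Ndufa5, Ndufa12 and Ndufb9, all higher), and 8 for anti-NCAM1 against control, 4 for GDNF plus anti-NCAM1 against control, 348 against GDNF, 4 against anti-NCAM1 and 403 for the interaction, with 0 members. With the GC and length trend removed, the members' median log2 fold change was 0.01 (0.01455) for anti-NCAM1 against control, 0.02 (0.0159) for GDNF plus anti-NCAM1 against control and 0.01 (0.01331) against anti-NCAM1, where it was -0.02 before. Against GDNF it was -0.02 (-0.02152), and 0.01 before. For GDNF against control it was 0.04 (0.03744), and 0.04 (0.04182) before. The interaction had a median of -0.03 (-0.03197), and -0.05 before.

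No pairing of libraries by replicate number was seen, though a weak one could be missed with 3 libraries per group. Same-numbered libraries' deviations correlated at -0.15 to 0.10, and 1 of 18 pairs was over 0.1. Those of libraries with different numbers correlated at -0.20 to 0.28, and 2 of 36 pairs were over 0.1. With the replicate block, 0 genes were called in each comparison, and the members' median for GDNF against control was 0.04 (0.03982). With the block and trend removal together, that median was 0.03825, and 0.01616 for anti-NCAM1 against control. For GDNF plus anti-NCAM1 it was 0.02023 against control, 0.01507 against anti-NCAM1 and -0.02117 against GDNF. The interaction had -0.03245.

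Leaving out each library, the genes called ranged from 0 to 2714 and members called from 0 to 13 for GDNF against control, with medians of 0.01611 to 0.07636. For anti-NCAM1 against control these were 0 to 8 genes (8 without GDNF replicate 3), 0 members and 0.02526 to 0.09193. For GDNF plus anti-NCAM1 against control they were 0 genes and 0.01942 to 0.05457. Against GDNF they were 0 to 1990 genes, 0 to 5 members and -0.01669 to 0.02386, and against anti-NCAM1 0 genes and -0.05266 to -0.001266. For the interaction they were 0 to 1887 genes, 0 to 7 members and -0.09676 to -0.003546. The highest of 2714, 1990 and 1887 genes came without GDNF replicate 1. The cause was not tested.

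Among single members' values for GDNF against control, the sign turned for 7 of those named. Ndufs3 ran from -0.06571 to 0.1489 and Ndufab1 from -0.1789 to 0.03425 without single libraries. Ndufs7 was at 0.001509 with the trend removed. Ndufs8 was at 0.1317 with the trend removed, 0.1298 with the replicate block too, and -0.1262 to 0.08058 without single libraries. Ndufa9 ran from -0.108 to 0.06421 without single libraries. Ndufa11 was at -0.001636 under upper-quartile scaling and -0.04839 to 0.07271 without single libraries. Ndufc1 was at -0.04571 with the trend removed, -0.0411 with the replicate block too, and -0.08882 to 0.2112 without single libraries. None of these passed the test in the analysis of all libraries.

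Ndufa4l2 and Ndufb2 had few counts, so their fold changes carry the widest errors.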
